A study of Mus musculus with 12 samples.

Results

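Gene expression was compared directly between macrophage cultures that received RANKL with RHC80267 and cultures that received RANKL with BMS309403. These are 2 of the 4 groups of the study and 6 of its 12 RNA-seq libraries, 3 in each group. The cells were macrophages, which can develop into osteoclasts, grown from bone marrow mononuclear cells of C57BL/6J mice aged 6 to 8 weeks. They were kept for 2 days in M-CSF at 50 ng/mL and then for 2 days in 1 of the 4 conditions. Both inhibitor groups carried M-CSF at 50 ng/mL and RANKL at 100 ng/mL, with RHC80267 at 1 µM in one and BMS309403 at 1 µM in the other. The other groups, M-CSF alone and M-CSF with RANKL, are given only as levels and entered no test. A vehicle is not named in the labels. Nor do the labels state that the 3 libraries of a group came from different animals or culture wells. Each p-value therefore reflects the variation among these libraries, part or all of which may be technical.

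RHC80267 is known as an inhibitor of diacylglycerol lipase, the enzyme that releases the endocannabinoid 2-arachidonoylglycerol from diacylglycerol. BMS309403 is known as an inhibitor of FABP4, a carrier of fatty acids in adipocytes and macrophages. RANKL binds its receptor RANK on macrophages and, through NF-κB, Fos and the transcription factor NFATc1, turns on the genes of the multinucleated, bone-resorbing osteoclast. Type I interferon acts through its receptor, the kinases JAK1 and TYK2 and a complex of transcription factors that includes STAT2 and IRF9, which binds the interferon-stimulated response element in the promoters of its target genes. RANKL is known to induce interferon-β in osteoclast precursors, where interferon limits osteoclast formation.

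Interferon response genes had the lowest median of the gene lists described below, so the promoters of 4 of them are shown from the RefSeq promoter table (GRCm38.p6), 200 bases before the start site, 5′ to 3′ on the strand of the gene. Capitals mark the core of the response element, GAAANNGAA, searched on both strands, so that a match on the other strand reads TTCNNTTTC. None of the 4 stretches overlaps an annotated exon of GENCODE vM21. The Ifit3 stretch lies inside the deposited gene entry, which begins farther upstream.
Ifit3, chr19:34583329-34583528, plus strand: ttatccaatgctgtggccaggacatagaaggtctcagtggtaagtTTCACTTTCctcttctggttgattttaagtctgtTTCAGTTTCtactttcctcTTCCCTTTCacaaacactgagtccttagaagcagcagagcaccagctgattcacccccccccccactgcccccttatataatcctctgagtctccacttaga
Isg15, chr4:156200819-156201018, minus strand: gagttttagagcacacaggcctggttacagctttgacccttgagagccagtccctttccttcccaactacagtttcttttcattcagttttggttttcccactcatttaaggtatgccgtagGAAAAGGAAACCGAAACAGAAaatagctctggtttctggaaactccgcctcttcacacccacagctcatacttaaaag
Rsad2, chr12:26456453-26456652, minus strand: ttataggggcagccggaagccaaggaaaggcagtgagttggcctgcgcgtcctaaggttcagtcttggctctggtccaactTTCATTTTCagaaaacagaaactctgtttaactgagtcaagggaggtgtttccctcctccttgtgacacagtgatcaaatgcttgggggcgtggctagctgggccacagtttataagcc
Cxcl10, chr5:92348890-92349089, minus strand: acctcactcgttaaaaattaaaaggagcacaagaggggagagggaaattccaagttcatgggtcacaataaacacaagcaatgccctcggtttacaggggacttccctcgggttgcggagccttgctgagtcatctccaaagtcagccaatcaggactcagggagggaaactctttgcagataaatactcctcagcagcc

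Ifit3 held 3 separate matches, whose first bases lie 155, 121 and 102 bases before the start. Isg15 held 3, at 78, 72 and 66 bases before the start, of which only neighbouring matches overlap. Rsad2 held 1, at 119 bases. The Cxcl10 stretch held none, although the longer window of 300 bases around its start held 1. Over windows of that length, 2812 of the 32851 promoters in the table held the core (8.56%), as did 854 of the 9635 tested genes with an entry (8.86%). Of the 38 interferon response genes described next, 29 had an entry and 21 of these held it. Under 80% of the list had an entry, so that share is void as a check of the list. A match is a description of the letters and not evidence of binding.

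The libraries had total expected counts of 17760838 to 18344985. The authors listed 16570 genes, and 11926 passed the filter on low counts. On the first principal component, which held 79.1% of the variance, the BMS309403 libraries ranged from -30.4 to -25.7, whereas those with RHC80267 ranged from 26.5 to 29. Of the genes tested, 3358 were higher with RHC80267 (28.2%) and 3368 were lower (28.2%), 6726 in all (56.4%), at an adjusted p below 0.05 by edgeR's quasi-likelihood test. Most of these differences were small: 354 genes were called and over 2-fold higher (2.97%) and 348 were called and over 2-fold lower (2.92%), 702 in all (5.89%). The 3 and 3 libraries did not overlap in 7436 genes (62.4%). These shares of all genes are the background for the list counts and the statements of overlap below. The median log2 fold change of all genes was 0.01, and the quartiles were -0.19 and 0.22.

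The even split of calls rested on the scaling. TMM factors were 0.961 to 0.972 in the BMS309403 libraries and 1.028 to 1.038 in the RHC80267 libraries. With library totals alone, 4786 genes were higher and 2212 lower, so that 68.4% of the calls were higher against 49.9% with TMM, and the median of all genes was 0.10. The 50 most abundant genes held 18.5% to 18.9% of the counts with BMS309403 and 17.2% to 17.6% with RHC80267; 31 of them were lower and 12 higher. Lyz2, which encodes macrophage lysozyme, alone held 2.08% and 1.48% of the counts. In the authors' deposited table, 2566 genes were higher with RHC80267 and 2738 lower at a q-value below 0.05. Of the 5242 such calls that the authors' deposited table holds among the genes tested here, 5241 were called in the same direction and 0 had the opposite sign.

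**Figure D1:**
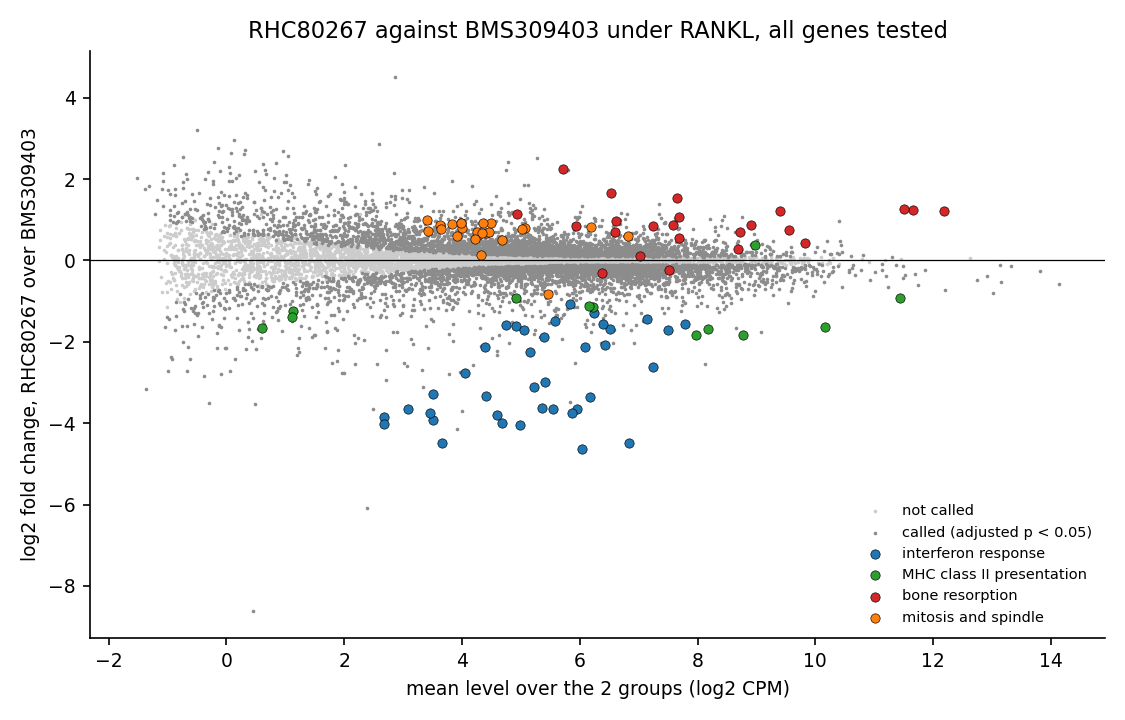
Log2 fold change of RHC80267 over BMS309403 (vertical axis) against the mean level over both groups in log2 CPM (horizontal axis) for the 11926 genes tested, with 4 gene lists in colour. The 38 interferon response genes lie below 0 across all levels, with a median of -3.05, and 21 of the 23 bone resorption genes lie above 0.

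Interferon response genes were the lowest group with RHC80267. All 38 members tested of 40 listed were lower (Mx1 and Mx2 were not analysed here), each over 2-fold, with a median log2 fold change of -3.05, against 28.2% called lower and 2.92% over 2-fold lower among all genes. Ifit3 (chr19:34583119-34588982, plus strand), an interferon-induced protein that binds viral RNA complexes, was at 120, 136 and 124 CPM (expected counts scaled to the TMM-adjusted library size) in the BMS309403 libraries and at 4.84, 5.88 and 4.56 in the RHC80267 libraries. The 3 libraries with RANKL alone lay between, at 76.1, 83.4 and 66.2 CPM, and no 2 of these groups overlapped. The log2 fold change was -4.64 ± 0.08 (SE; adjusted p = 9.67e-20, edgeR), 24.9-fold in favour of BMS309403.

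Isg15 (chr4:156199424-156200818, minus strand) encodes the ubiquitin-like modifier that interferon induces. Its level was 43.3, 49.2 and 42.1 CPM with BMS309403 and 3.12, 3.1 and 3.42 CPM with RHC80267, a log2 fold change of -3.80 ± 0.09 (adjusted p = 1.26e-17). Cxcl10 (chr5:92346638-92348889, minus strand), a chemokine that attracts T cells, was at 46.7, 50.6 and 48.2 against 3.71, 2.5 and 2.88 CPM (-4.00 ± 0.09, adjusted p = 5.15e-18). For both genes every RHC80267 library was below every library of the other 3 groups. Ifit2 (-4.48), Ifit3b (-4.49), Ifit1bl1 (-4.14), Ifit1 (-4.04), Ifi44 (-4.02), Ifi213 (-3.92) and Ifi205 (-3.84) were among the 10 lowest log2 fold changes of genes that reached 5 CPM in 1 of the groups, and Ifit1bl1, a relative of Ifit1, is not a member of the list. Rsad2, the antiviral enzyme viperin, stood at -3.74 and Oas3, a sensor of double-stranded RNA, at -3.62. Members of the Ifit, Oas and Ifi200 families share sequence with close copies, and how the expected counts divided reads among them was not examined.

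**Figure D2:**
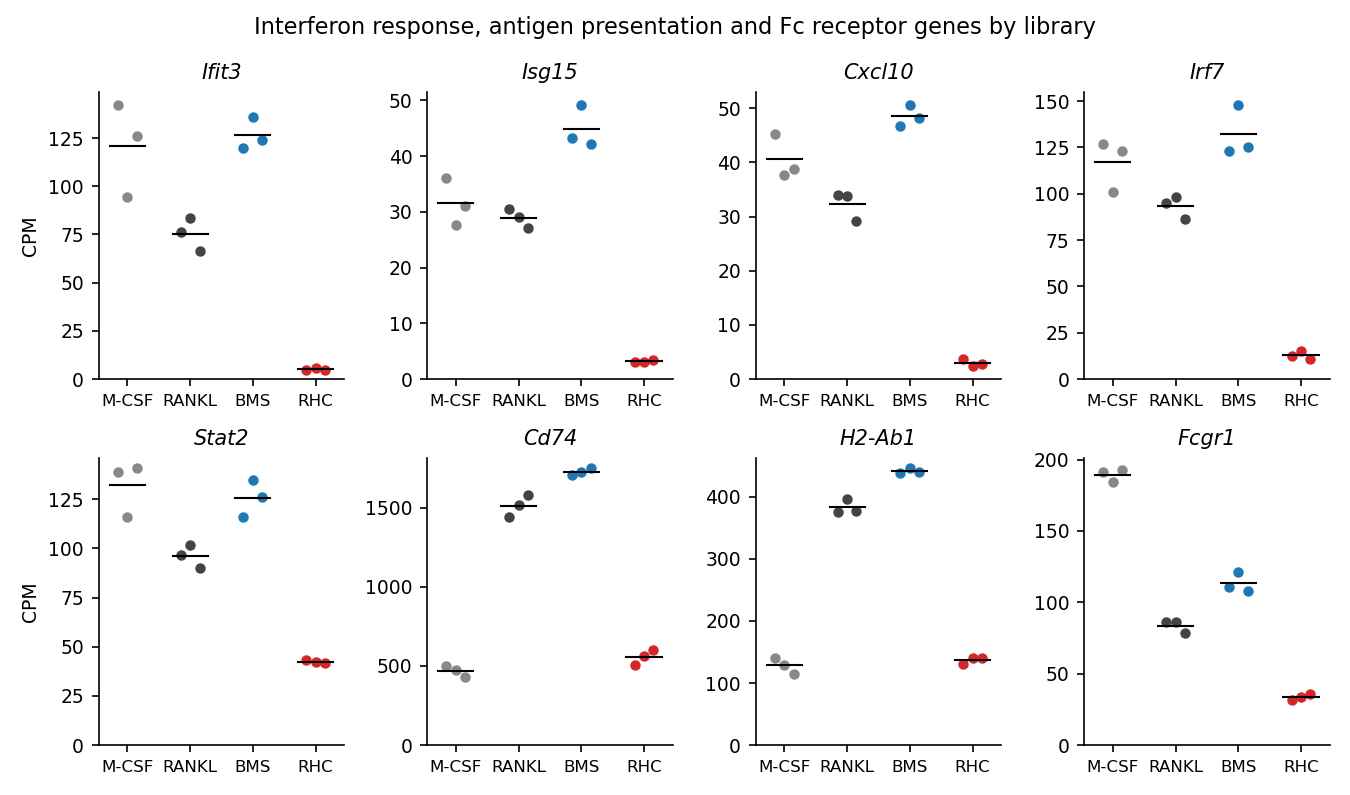
Levels in CPM (vertical axes, from 0) of 8 genes in the 12 libraries, one point per library and a line at the group mean; BMS and RHC stand for RANKL plus BMS309403 and RANKL plus RHC80267. Ifit3 means were 127 and 5.09 CPM in those groups, and for Cd74 they were 1725 and 556 CPM.

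Genes of interferon signalling itself were mostly lower. Among 18 tested genes for interferon ligands, receptors and signalling, 14 were lower, 2 higher and 2 not called, and the median was -0.52. Irf7, which amplifies interferon production, was at 123, 148 and 125 CPM with BMS309403 and at 12.5, 15 and 10.9 CPM with RHC80267, a 10.3-fold difference (log2 -3.36 ± 0.08, adjusted p = 1.87e-17). Stat2 was at 116, 135 and 126 against 43.1, 42.1 and 41.6 CPM (-1.57 ± 0.05, adjusted p = 2.10e-15), without overlap. Irf9, which binds DNA in the same complex, stood at -1.06. Both chains of the type I receptor, Ifnar1 (-0.45) and Ifnar2 (-0.24), were lower, as were the interferon-γ receptor chains Ifngr1 (-0.20) and Ifngr2 (-0.15). Feedback inhibitors went both ways: Usp18 (-2.77) and Socs1 (-1.28) were lower, and Socs3 (0.57) was higher. Irf3, the sensor-activated factor that starts interferon transcription, was higher (0.30). Ifnb1, which encodes interferon-β, did not pass the filter on low counts, and its level could not be compared at this depth.

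Antigen presentation genes were lower with RHC80267. Of 12 class II genes, 11 were lower, 9 of them over 2-fold, and 1 was higher, with a median of -1.32. Cd74, the chaperone of class II molecules, was at 1707, 1722 and 1747 CPM with BMS309403 and at 504, 564 and 600 CPM with RHC80267 (-1.63 ± 0.05, adjusted p = 1.56e-16). H2-Ab1, a class II chain, was at 439, 446 and 440 against 130, 140 and 140 CPM (-1.69 ± 0.04, adjusted p = 6.18e-18). In both genes the RHC80267 libraries were far below those with RANKL alone, which ranged from 1439 to 1580 CPM for Cd74 and from 376 to 397 CPM for H2-Ab1. They were near the libraries with M-CSF alone, at 500, 473 and 433 CPM for Cd74 and 141, 129 and 115 CPM for H2-Ab1. H2-Aa (-1.84) and H2-Eb1 (-1.82) encode other class II chains, and Ciita (-0.91) is the coactivator that class II transcription depends on. The member that was higher was Ifi30 (0.38), a lysosomal reductase.

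Class I genes differed less. Of 18 members, 16 were lower, 1 was higher and 1 was not called, none over 2-fold, and the median was -0.59. B2m, the light chain of class I molecules, was at 1652, 1846 and 1645 CPM with BMS309403 and at 1057, 1130 and 1083 CPM with RHC80267 (-0.65 ± 0.04). The peptide transporter subunits diverged, with Tap1 lower (-0.61) and Tap2 higher (0.30). Class I heavy chain genes are close copies of each other, so reads may have been divided among them. Of 10 co-stimulatory and checkpoint ligands, 7 were lower and 3 not called. Cd86, a ligand of CD28, stood at -1.56 and Lgals9, which encodes galectin-9, at -1.58. Cd40 (-1.20) and Cd83 (-1.50) were lower too.

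Genes of bone resorption were higher with RHC80267. Of 23 members, 21 were higher, 9 of them over 2-fold, and 2 were lower, with a median of 0.87, against 28.2% called higher and 2.97% over 2-fold higher among all genes. Acp5 (chr9:22126727-22135746, minus strand), the tartrate-resistant acid phosphatase of osteoclasts, was at 1742, 1631 and 1756 CPM with BMS309403 and at 4177, 4326 and 3900 CPM with RHC80267. With RANKL alone it was at 2413, 2072 and 2025 CPM, above every BMS309403 library and below every RHC80267 library. The log2 fold change was 1.27 ± 0.04 (adjusted p = 8.08e-16), 2.42-fold. Calcr (chr6:3685680-3764713, minus strand), the calcitonin receptor, showed the highest fold of the list, from 17.6, 17.9 and 19.5 to 84.9, 97.4 and 79.1 CPM (4.75-fold, log2 2.25 ± 0.07, adjusted p = 9.43e-16).

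The collagen-degrading protease cathepsin K, encoded by Ctsk (chr3:95499210-95509387, plus strand), was at 2006, 1794 and 1975 CPM with BMS309403 and at 4247, 4989 and 4308 CPM with RHC80267 (1.23 ± 0.05, adjusted p = 5.58e-14). Mmp9, a matrix gelatinase, was at 2745, 2585 and 3042 against 6166, 7076 and 6284 CPM (1.22 ± 0.05). Per length, in the TPM values deposited by the authors, Acp5 had 2273 ± 103 and 5972 ± 252 TPM (SD, n = 3), Ctsk 2103 ± 125 and 5362 ± 480, and Mmp9 1353 ± 126 and 3431 ± 256, so the order of these 3 levels was alike in both groups. Itgb3, the β3 integrin that anchors osteoclasts to bone, was at 103, 95.6 and 110 against 288, 329 and 280 CPM (1.54 ± 0.06). Oscar, an osteoclast receptor for collagen, was at 44.5, 43.7 and 45.5 against 136, 157 and 130 CPM (1.66 ± 0.06). None of these genes had overlapping groups, as was the case for 62.4% of all genes tested. The 2 lower members were Pstpip2 (-0.31), an adaptor that restrains osteoclasts, and Ptk2b (-0.24), the kinase PYK2 of the sealing zone.

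**Figure D3:**
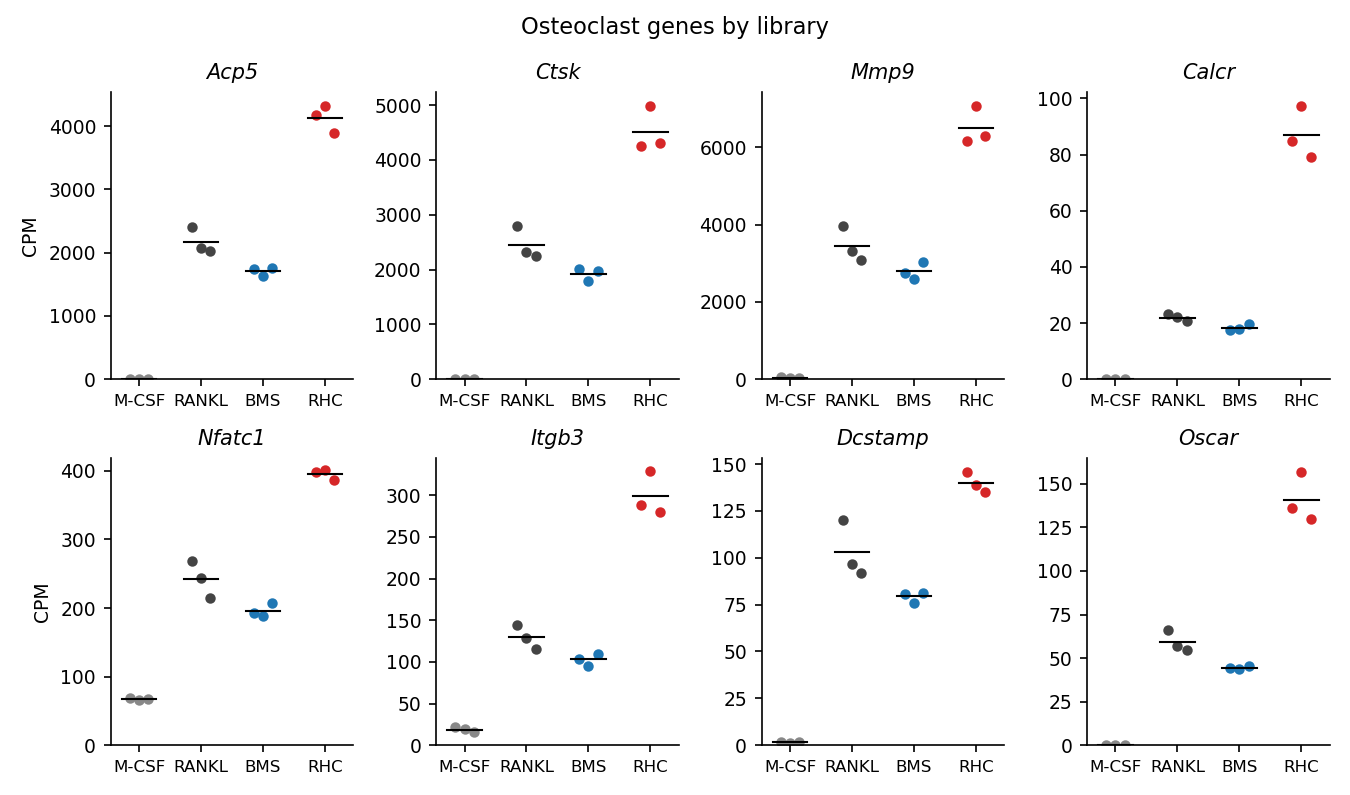
Levels in CPM (vertical axes, from 0) of 8 osteoclast genes in the 12 libraries, one point per library and a line at the group mean; BMS and RHC stand for RANKL plus BMS309403 and RANKL plus RHC80267. Every RHC80267 library lies above every library of the other groups; Acp5 means were 5.86 CPM with M-CSF, 1710 with BMS309403 and 4134 with RHC80267.

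Subunits of the vacuolar proton pump, which acidifies the resorption pit, were mostly higher by small amounts. Of 18, 14 were higher, 2 were lower and 2 were not called, with a median of 0.22 and none past 2-fold. Atp6v0d2, an osteoclast form of subunit d, stood at 0.76 and Tcirg1, the osteoclast form of subunit a, at 0.43. Their widely expressed counterparts were lower: Atp6v0a1 stood at -0.55 and Atp6v0d1 at -0.17, of which the latter was not called with library totals. Of 18 fusion genes, 11 were higher, 6 lower and 1 not called. Dcstamp, required for the fusion of precursors, was at 80.7, 76.1 and 81.3 CPM with BMS309403 and at 146, 139 and 135 CPM with RHC80267 (0.82 ± 0.04, adjusted p = 2.30e-12), and Ocstamp was at 48.9, 47.2 and 52.4 against 98.4, 109 and 98.1 CPM (1.04 ± 0.05). Siglec15 (1.26) and Mst1r (1.33) were higher. The adhesion molecules Cd44 (-0.61) and Cd47 (-0.47) and the adaptor Tyrobp (-0.39), all also found on macrophages, were lower.

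The receptor for RANKL itself was not called. Tnfrsf11a, which encodes RANK, was at 151, 165 and 165 CPM with BMS309403 and at 164, 171 and 166 CPM with RHC80267, groups that overlap (0.05 ± 0.04, 95% interval -0.03 to 0.14, adjusted p = 0.277). With library totals it was called at 0.15 (adjusted p = 0.00373). Downstream, Nfatc1, the factor that drives osteoclast genes, was at 193, 188 and 208 against 399, 402 and 387 CPM (1.01 ± 0.04, adjusted p = 2.87e-14). Fosl2 (1.09), an AP-1 factor, Ppargc1b (1.08), a coactivator of mitochondrial genes in osteoclasts, and Jdp2 (0.83) were higher. Over the 28 tested genes of RANK signalling and osteoclast transcription, 15 were higher, 5 lower and 8 not called, with a median of 0.17 (0.13 to 0.27 under the alternatives run); with library totals 1 was lower.

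Repressors of osteoclast formation were lower with RHC80267 in 9 of 11 tested and not called in the other 2, with a median of -0.62. Under the alternatives run 7 to 9 were lower, and 1 was higher under 5 of them, limma-voom and library totals included. Id2, an inhibitor of basic helix-loop-helix factors, was at 143, 140 and 108 CPM with BMS309403 and at 55.4, 52.5 and 58.1 CPM with RHC80267 (-1.23 ± 0.08, adjusted p = 2.42e-11). Bcl6 (-0.86), Rbpj (-0.75) and the inhibitory receptor Lilrb4a (-0.86) were lower. Irf8, a repressor that RANKL is known to lower, was not called (-0.08). Among 13 AP-1 and early response genes outside the RANK list, 6 were lower, 2 higher and 5 not called; Atf3 stood at -1.13. With library totals 5 were higher, and without BMS309403 replicate 2 it was 1.

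Macrophage identity genes were lower in 20 of 24, higher in 2 and not called in 2, with a median of -0.48. Fcgr1 (chr3:96282909-96293969, minus strand), the high-affinity receptor for IgG, was at 111, 121 and 108 CPM with BMS309403 and at 31.9, 33.6 and 35.7 CPM with RHC80267 (-1.75 ± 0.05, adjusted p = 4.83e-16). With RANKL alone it was at 86.2, 85.9 and 78.4 CPM. Ms4a7 (-1.19), Cd14 (-0.93), the co-receptor for lipopolysaccharide, and Msr1 (-0.81), a scavenger receptor, were lower. Csf1r, the receptor for M-CSF, was at 2872, 3053 and 3118 against 2755, 2729 and 2765 CPM, a small difference (-0.13 ± 0.04, adjusted p = 0.00335) that was not called with library totals (-0.04). C1qa differed as little (-0.13) and was not called with library totals, with all 12 libraries in the fit or without BMS309403 replicate 2. The higher members were Mertk (0.41), a receptor for dying cells, and Cx3cr1 (0.18), which was not called without BMS309403 replicate 2 or without RHC80267 replicate 1. These are bulk cultures, in which fewer cells of a type and less RNA per cell cannot be told apart.

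Chemokine ligands were lower in 11 of 14 tested, 8 over 2-fold, with 1 higher, 2 not called and a median of -1.19. Ccl2, which attracts monocytes, was at 17, 15.5 and 11.1 CPM with BMS309403 and at 2.1, 3.37 and 4.99 CPM with RHC80267 (-2.06 ± 0.19, adjusted p = 1.29e-08). Ccl5 (-2.14) and Ccl7 (-2.32) were also lower, as was Cxcl9 (-3.50), named after its values were seen, which was at 1.27 to 1.76 CPM against 0.108 to 0.161 CPM. The 1 higher member was Pf4 (0.22). There were 2 without RHC80267 replicate 1 or replicate 3, with all 12 libraries in the fit or with library totals. NF-κB inflammatory genes were called in both directions. Of 18 tested, 10 were lower, 8 over 2-fold, 6 were higher and 2 (Il10 and Saa3) were not called, with a median of -0.64. Under the alternatives run, 8 to 11 were lower and the median ran from -0.99 to -0.35. The lower ones were cytokines, chemokines, enzymes and the inflammasome sensor Nlrp3 (-0.62). Among them were Tnf (-1.40 ± 0.14), Il1b (-1.69 ± 0.33), Il1rn (-1.57 ± 0.05) and Nos2 (-2.43 ± 0.43). The higher ones were Nfkbia (0.66), Tnfaip3 (0.52), Nfkbiz (0.71), Traf1 (0.62), Birc3 (0.41) and Icam1 (0.14). Nfkbia and Tnfaip3 encode inhibitors of NF-κB, at 135, 125 and 132 against 203, 208 and 207 CPM for Nfkbia. Il1b was near the bottom of what these libraries measure, at 2.22 ± 0.043 against 0.685 ± 0.516 CPM (SD, n = 3).

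Of 12 complement genes, 9 were lower and 3 higher. Factor B, encoded by Cfb, stood at -2.60 ± 0.13. The membrane regulators went the other way, with Cd55, which accelerates the decay of complement convertases, at 7.72, 9.42 and 8.77 CPM with BMS309403 and at 48.3, 41.6 and 48.8 CPM with RHC80267 (5.35-fold, log2 2.42 ± 0.08, adjusted p = 1.71e-15) and Cd59a at 0.48. Among 13 scavenger and efferocytosis receptors, 8 were lower and 4 higher. Marco (chr1:120474538-120505024, minus strand), which binds bacteria and particles, was at 7.09, 9.54 and 11.5 against 51.9, 38.5 and 41.8 CPM (4.70-fold, log2 2.23 ± 0.12, adjusted p = 2.23e-12). Its level was 7.24, 6.32 and 6.8 CPM with RANKL alone and 58.1 CPM on average with M-CSF, so the BMS309403 libraries were near the first and the RHC80267 libraries near the second. Cd163 (1.18), the haemoglobin scavenger receptor, was higher, and Olr1 (-1.79) and Clec7a (-0.99), the receptor for β-glucan, were lower.

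Among genes that reached 5 CPM in 1 of the groups and whose groups did not overlap, the highest fold after the collagen gene Col1a1 was that of Fkbp5, a chaperone cofactor of steroid receptors. It was at 10.7, 11.6 and 11.9 CPM with BMS309403 and at 64.8, 62.3 and 69.9 CPM with RHC80267 (5.77-fold, log2 2.53 ± 0.07, adjusted p = 3.80e-17). The libraries with RANKL alone, at 14.4, 12.5 and 11.8 CPM, were close to the BMS309403 libraries. Fkbp5 is one of 17 tested genes that glucocorticoids are known to regulate. As a group these did not move one way: 6 were higher, 6 lower and 5 not called, with a median of -0.08, and with library totals 3 were lower. The higher ones were Fkbp5, Per1 (1.19), Cd163 (1.18), Klf9 (1.12), Tsc22d3 (0.99), which encodes the leucine zipper protein GILZ, and Ddit4 (0.84). Tsc22d3 was at 66, 66.1 and 74.4 against 132, 137 and 141 CPM. The lower ones included Il1r2 (-1.33), a decoy receptor, Lcn2 (-0.43) and the receptor gene Nr3c1 (-0.19). The other genes of the 10 highest were Slc13a3 (2.23), a dicarboxylate transporter, Sema3a (2.34), a secreted semaphorin, Kazn (1.95), Cd55, Calcr and Marco, with Col1a1, Col1a2 and Sparc described below.

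**Figure D4:**
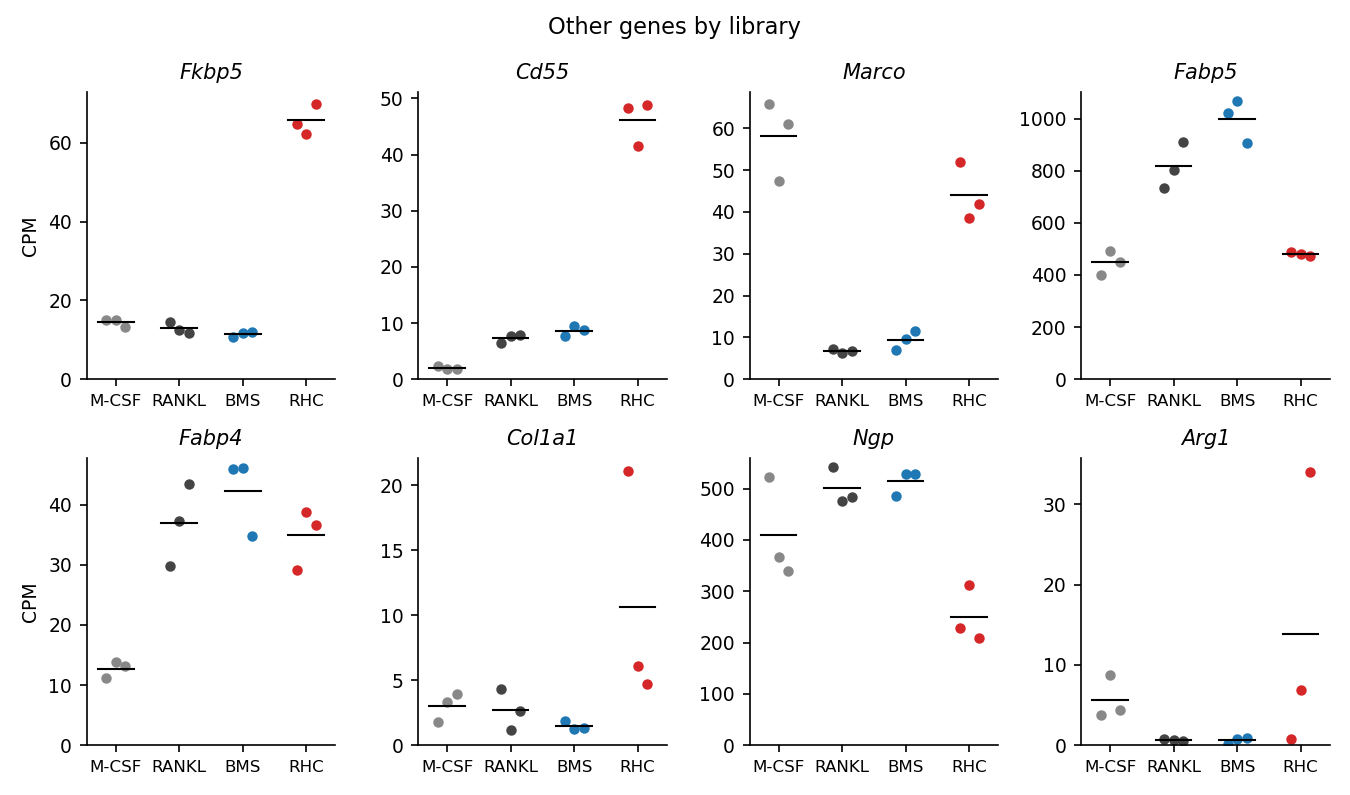
Levels in CPM (vertical axes, from 0) of 8 further genes in the 12 libraries, one point per library and a line at the group mean; BMS and RHC stand for RANKL plus BMS309403 and RANKL plus RHC80267. Fkbp5 and Cd55 are high in the 3 RHC80267 libraries alone, while Col1a1 and Arg1 are spread over the 3 libraries of that group.

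The genes for the proteins that the compounds are known to inhibit were expressed in both groups. Fabp4 (chr3:10196673-10208616, plus strand) was at 45.9, 46 and 34.7 CPM with BMS309403 and at 29.2, 38.8 and 36.6 CPM with RHC80267, groups that overlap. The log2 fold change was -0.28 ± 0.09 (adjusted p = 0.0184), and the call was lost with DESeq2 (adjusted p = 0.200), with all 12 libraries in the fit, with library totals and without BMS309403 replicate 1, BMS309403 replicate 2 or RHC80267 replicate 1, where the values were -0.21, -0.21 and -0.16. Fabp5 (chr3:10012585-10016610, plus strand), the epidermal form, was at 1020, 1069 and 906 against 489, 482 and 474 CPM (-1.05 ± 0.05, adjusted p = 1.18e-13). Per length, Fabp5 had 2176 ± 158 and 1140 ± 3.6 TPM and Fabp4 161 ± 22.4 and 145 ± 22.1 TPM (SD, n = 3), so Fabp5 was the more abundant of the pair in both groups. Fabp3 was lower (-1.39 ± 0.20). Fabp7 was higher (0.43 ± 0.15, adjusted p = 0.0213), but not under DESeq2 nor without BMS309403 replicate 1, RHC80267 replicate 1 or RHC80267 replicate 3. Fabp6 was listed at 0 in the 6 libraries and Fabp1 had 1 count in all.

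Both diacylglycerol lipase genes were lower with RHC80267. Dagla (chr19:10245265-10304877, minus strand) was at 9.56, 10.3 and 11.8 CPM with BMS309403 and at 6.62, 6.26 and 6.78 CPM with RHC80267 (-0.68 ± 0.11, adjusted p = 2.11e-05). Daglb (chr5:143464484-143504442, plus strand) was at 87.8, 87.2 and 83.6 against 71.3, 73.9 and 74.2 CPM (-0.24 ± 0.04, adjusted p = 9.61e-05). Neither had overlapping groups, as was the case for 62.4% of all genes tested. Per length Daglb was the more abundant, at 41.4 ± 0.799 and 38.2 ± 1.21 TPM against 2.74 ± 0.313 and 1.85 ± 0.105 TPM for Dagla. Mgll, which degrades 2-arachidonoylglycerol, was at 2.65, 1.7 and 1.7 against 1.18, 1.63 and 1.46 CPM and was not called (-0.50 ± 0.24, upper end of the 95% interval 0.01, adjusted p = 0.0857). The CB2 cannabinoid receptor gene Cnr2 was lower (-0.39), and Faah (0.97) and Napepld (0.81), enzymes of anandamide breakdown and synthesis, were higher. Over the 20 tested genes of this group, 11 were lower, 5 higher and 4 not called, with a median of -0.18 (-0.20 to -0.08 under the alternatives run); with library totals 7 were lower.

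Among 19 enzymes and receptors of prostaglandins and leukotrienes, 8 were lower, 7 higher and 4 not called, around a median of 0.01; under the alternatives run 6 to 8 were lower and the median ran from -0.08 to 0.11. Hpgds, the haematopoietic prostaglandin D synthase, was lower (-0.77), and Ltc4s (0.69), the leukotriene C4 synthase, was higher. Ptgs2, which encodes cyclooxygenase-2, passed narrowly (-1.06 ± 0.43, adjusted p = 0.0424). Cholesterol synthesis genes were lower in 15 of 23 and higher in none, with 8 not called and a median of -0.55; with library totals 1 was higher. Cyp51, the lanosterol demethylase, was at 56.1, 63.7 and 58 CPM with BMS309403 and at 31.2, 24.4 and 31.4 CPM with RHC80267 (-1.03 ± 0.07, adjusted p = 2.24e-10), without overlap. Sqle (-0.93) and Idi1 (-0.89), other enzymes of the pathway, were lower, while Mvk (-0.12) and Dhcr7 (-0.04) were not called. Of 11 LXR targets 7 were lower and 2 higher, with Abca1, the cholesterol exporter, at -0.85 and Abcg1 at 0.16; with library totals 4 were lower, and without RHC80267 replicate 3 Abcg1 was not called and 1 was higher. Of 23 genes of lipid uptake and storage, 11 were not called, 9 were lower and 3 higher, against 56.4% called among all genes. Their median was -0.03 (-0.09 to 0.07 under the alternatives run), and with library totals 5 were lower.

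Every one of the 32 oxidative phosphorylation genes tested was higher with RHC80267, none over 2-fold, with a median of 0.28; between 29 and 32 were called higher under the alternatives run. Cyc1, cytochrome c1 of complex III, was at 107, 102 and 103 CPM with BMS309403 and at 169, 165 and 164 CPM with RHC80267 (0.68 ± 0.04, adjusted p = 9.11e-12). Cycs (0.53), which encodes cytochrome c, Sdha (0.50), of complex II, and Atp5b (0.47), of the ATP synthase, were higher too. Lysosomal genes went the other way, with 18 of 26 lower, 3 higher, 5 not called and a median of -0.25 (-0.26 to -0.15 under the alternatives run); with library totals 5 were higher. Ctsl, the protease cathepsin L, was at 1332, 1300 and 1261 against 673, 721 and 724 CPM (-0.88 ± 0.04). Genes of glycolysis were less uniform, with 8 of 19 higher, 3 lower and 8 not called, against 56.4% called among all genes. With library totals 13 were higher.

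Mitosis and spindle genes were higher in 22 of 24, lower in 1 and not called in 1, with a median of 0.75. Top2a, the topoisomerase of dividing cells, was at 49.6, 53.7 and 54.9 CPM with BMS309403 and at 96.3, 83.8 and 99.3 CPM with RHC80267 (0.82 ± 0.06, adjusted p = 2.27e-10). It was at 76, 68.4 and 60.2 CPM with RANKL alone, between the inhibitor groups. Ccnb1 (0.93), Prc1 (0.91) and Bub1b (0.81) were higher, and Cenpa, the centromeric histone, was lower (-0.82). Of 20 DNA replication genes, 16 were higher and 2 lower. Ccne2, a cyclin of the entry into S phase, was at 5.53, 4.77 and 5.15 against 10.5, 12.8 and 11.2 CPM (1.16 ± 0.11). The lower pair was Pcna (-0.19) and Cdt1 (-0.15), and the call of Cdt1 was lost under several alternatives, DESeq2 and library totals among them.

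Amino acid response and serine synthesis genes were higher in 11 of 18, with 3 lower and a median of 0.53. Asns, asparagine synthetase, was at 15.2, 12.9 and 13.5 CPM with BMS309403 and at 29.1, 27.7 and 26.4 CPM with RHC80267 (1.00 ± 0.07, adjusted p = 2.54e-10). Ddit3, which encodes the stress factor CHOP, was lower (-0.44). Of 17 endoplasmic reticulum chaperones 13 were higher and 1 lower, with Hspa5, the chaperone BiP, at 0.19; with library totals none was lower. NRF2 targets had 6 members higher and 6 lower of 17, and with library totals 9 and 3. Cytosolic ribosomal proteins were mostly not called (17 of 24, with 2 higher and 5 lower). With library totals 11 were higher and 0 lower. With all 12 libraries in the fit 5 were higher and 2 lower, and without BMS309403 replicate 1 it was 6 and 3. Under the other alternatives more were lower than higher. Their direction therefore rested on the scaling and on which libraries were fitted.

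**Figure D5:**
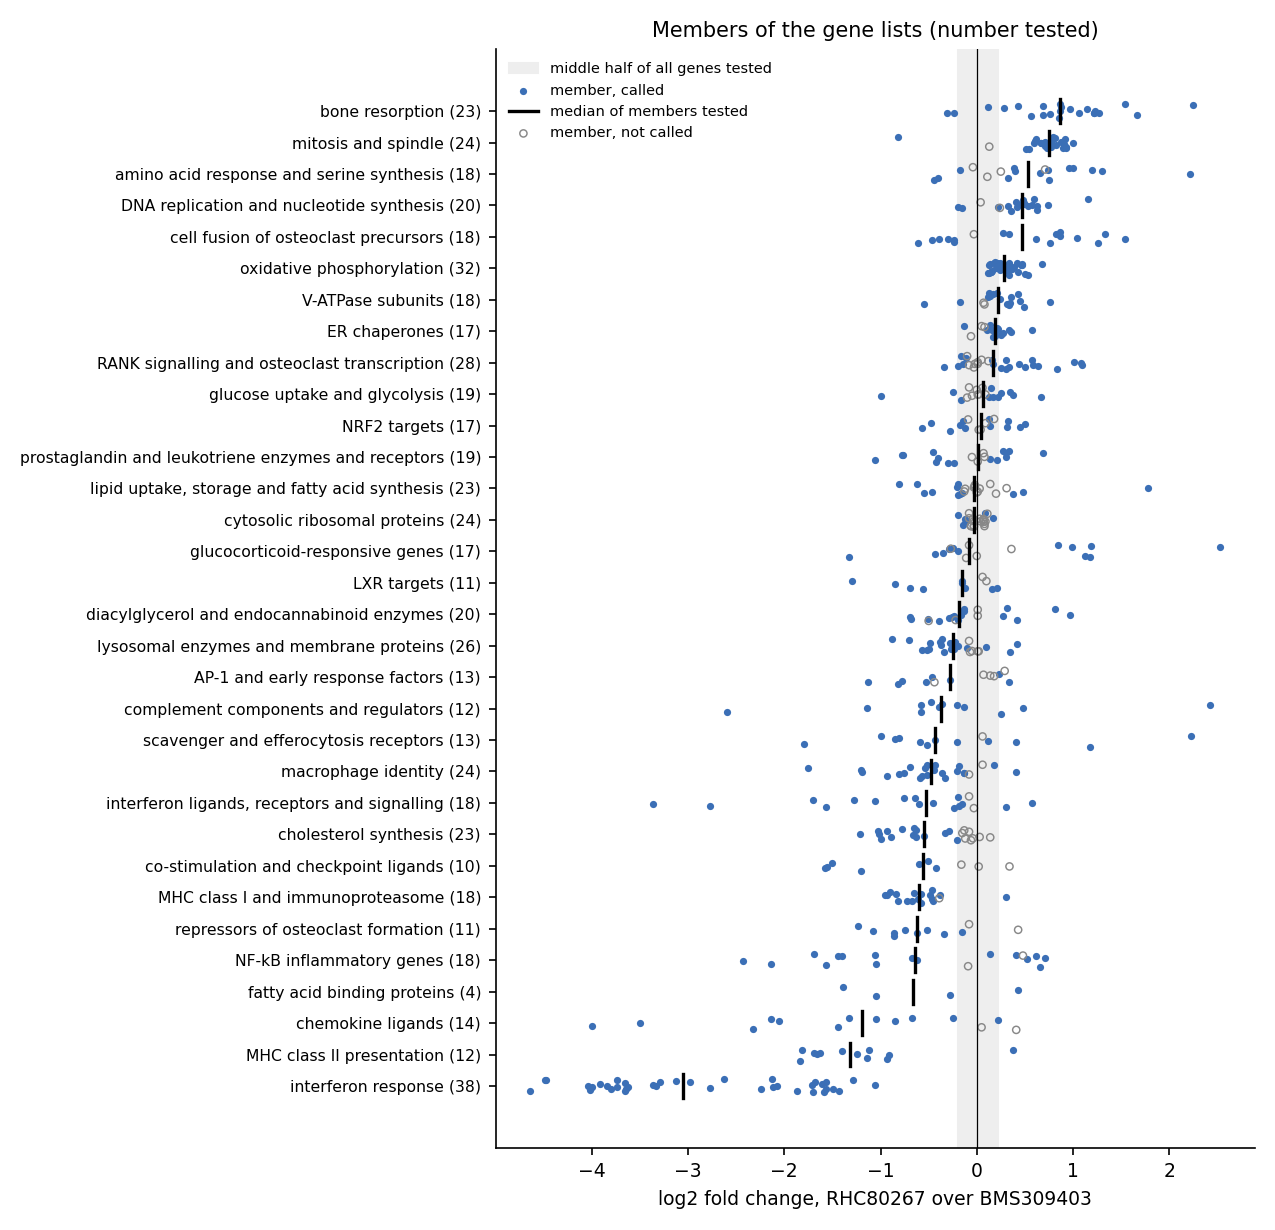
Log2 fold change of RHC80267 over BMS309403 (horizontal axis) for the members of 32 gene lists (vertical axis, number tested in parentheses), filled where called and open where not, with a bar at each median. The grey band runs between the quartiles of all genes tested, -0.19 and 0.22; the interferon response list lies farthest to the left and bone resorption farthest to the right by median.

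Markers of the cell types these cultures could hold were summed per library. Osteoclast markers, all of them members of the lists above, were higher in 10 of 10, with sums of 7026 to 7863 CPM with BMS309403 and 16508 to 18637 CPM with RHC80267, against 8540 to 10584 CPM with RANKL alone and 178 to 203 CPM with M-CSF. Macrophage markers were present in both groups, at 28483 to 30323 and 20548 to 21602 CPM, with 7 of 10 lower and 2 higher. Neutrophil markers were lower in 9 of 12, with sums of 1745 to 1880 and 874 to 1239 CPM. Ngp, a neutrophil granule protein, was at 485, 529 and 529 against 228, 312 and 208 CPM (-1.04 ± 0.09), and S100a9 stood at -0.91; both were named after their values were seen. None of the markers in these lists that the table holds was at 0 in all 6 libraries. The macrophage and neutrophil sums were lower, as were the medians of the macrophage, chemokine and inflammatory gene lists above. The macrophage markers are all members of the macrophage identity list. The inflammatory list itself summed higher, at 711 to 725 CPM with BMS309403 and 811 to 826 CPM with RHC80267. What part a change in cell types had in those results was not tested.

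Markers of rarer cells were low. Megakaryocyte markers Itga2b (-1.75) and Ppbp (-1.62) gave the tested part of an erythroid and megakaryocyte list that summed to 26.5 to 30 CPM with BMS309403 and 7.92 to 10.3 CPM with RHC80267, and the endothelial receptor Kdr was lower (-2.21). B cell markers summed to 11 to 12 and 9.06 to 10.7 CPM, T and NK cell markers to 0.864 to 1.08 and 0.323 to 0.976 CPM, mast cell and basophil markers to 11.5 to 11.9 and 5.65 to 11.2 CPM, and dendritic cell markers to 128 to 134 and 152 to 169 CPM. Of 8 dendritic cell markers tested, 3 were lower, among them Ccr7 (-1.18) and Siglech (-1.21), and 2 were higher.

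Of 6 stromal and osteoblast markers tested, 3 were higher, 1 (Runx2, -0.34) was lower and 2 were not called. The list summed to 17.1 to 22.2 CPM with BMS309403 and 23.4 to 70 CPM with RHC80267. One library decided much of this. Col1a1, a chain of type I collagen, was at 1.84, 1.25 and 1.3 CPM against 21.1, 6.1 and 4.72 CPM, with replicate 1 of the RHC80267 group far above the others. Its log2 fold change of 2.86 ± 0.46 (adjusted p = 2.39e-05) was 1.88 without that library. Col1a2 went from 2.16 to 1.01 and Sparc, a matrix glycoprotein, from 2.05 to 0.92 in the same way, each still called, and Col3a1, named after its values were seen, from 2.70 to 1.88. Leaving out that library left 3128 genes higher and 3122 lower, with 0 of 38 interferon response genes higher and 38 lower, and with 21 of 23 bone resorption genes higher.

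For 2 further genes with at least 5 CPM in the higher group, the size of the difference was uncertain. Arg1, arginase 1, named after its values were seen, was at 0.173, 0.795 and 0.849 CPM with BMS309403 and at 0.754, 6.86 and 34.1 CPM with RHC80267. The groups overlap, and replicate 3 of the RHC80267 group stood apart. Its log2 fold change was 4.50 ± 0.93 (adjusted p = 3.55e-04), was 2.63 without that library, and was not called by limma-voom (adjusted p = 0.0643). Hmga1b had the lowest log2 fold change of genes at that level, at 9.45, 11.7 and 9.73 against 0, 0.272 and 0.163 CPM (-6.09 ± 0.29). It is a near-identical copy of Hmga1, a chromatin protein gene named after its values were seen. Hmga1 was at 288, 290 and 277 against 175, 173 and 175 CPM (-0.71 ± 0.04). How the expected counts divided reads between the copies was not examined.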

How the data were processed

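Per the file headers, the authors deposited 2 values for each gene and library: an estimated read count (expected count, of which 9.49% to 9.89% are not whole numbers) and TPM. The deposited table also gives log2 fold changes and q-values by the authors, which served only to count their calls and compare signs. Per the submitters' processing notes, the tools were Bowtie2, RSEM (1.3.1) and DESeq2 (1.4.5); their order and any filter on reads are not stated. Gene positions are on GRCm38, and genes whose entry spans an unplaced sequence get none.

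After rounding the expected counts, filterByExpr dropped 4644 genes. The 6 libraries were scaled with TMM and fitted with edgeR 4.0.16 (glmQLFit, glmQLFTest; R 4.3.3); the model held group alone and left 4 residual degrees of freedom. Called genes have a 2-sided p below 0.05 after Benjamini-Hochberg adjustment over the whole table tested. Fold changes are log2, RHC80267 over BMS309403, ± SE. The biological coefficient of variation came to 0.035. Levels are CPM on the TMM scale. The fit was run on simulated data in which few genes changed, in equal numbers up and down. That run does not bear on how the split of calls rests on the scaling. Replicates of a group differed by more than sampling noise (chi-square per gene 2.54 to 3.42).

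The genes and the 32 pathway and 10 marker lists were chosen with earlier results of these data known. The text names 24 fixed genes, the 10 highest and 10 lowest called genes whose groups do not overlap and whose higher mean reaches 5 CPM, every FABP gene, and members of each list (the 5 with the smallest p, 3 called against its median). Further list members are named to describe a list. Of 663 symbols, 7 were not analysed here, and list members under the filter carry no test. Some genes that the naming rule picks are not reported here.

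Alternatives were DESeq2 1.42.0, limma-voom (limma 3.58.1), RLE factors, a fit without the filter, a stricter one (1 CPM or more in 3 or more libraries), all 12 libraries in the fit, a replicate block, each library left out in turn and, chosen after seeing the data, library totals without TMM factors.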

Additional observations from a re-analysis of the deposited data

How the results depend on the processing

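Counts of genes higher and lower with RHC80267 stayed within 1.5 times the reported ones under the 14 alternatives, with 1 exception: with library totals and no TMM factors 2212 genes were lower against 3368, the construction of that alternative being a shift of the median to 0.10. Leaving out 1 library gave 3009 to 3248 genes higher and 2967 to 3209 lower, with 356 to 408 over 2-fold higher and 346 to 391 over 2-fold lower. DESeq2 gave 2770 higher and 2891 lower. With the replicate block 3385 were higher and 3393 lower, and 6639 of the 6726 calls were kept. The labels do not say whether replicate numbers pair the samples. Same-numbered libraries had deviations that correlated at 0.078, -0.005 and 0.018, and not every library correlated best with its own number. So few libraries cannot settle whether the numbers pair cultures. Of 218 named genes tested, none changed sign, 21 lost a call under at least 1 alternative and 1 gained one. Genes under the filter, such as Ifnb1, could not be compared at this depth.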
